A study of Eragrostis tef with 16 samples.

Results

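The low calcium response of tef roots was described across 5824 genes in 8 root libraries, 4 from plants given low calcium and 4 from plants given optimum calcium. Tef (Eragrostis tef) is an allotetraploid cereal, and its gene names carry the letter A or B for the subgenome each gene lies in. All plants were grown in nutrient solution, and the calcium treatment is the difference between the groups that the labels name. The deficiency is described as long-term in the title of the series. The labels give no cultivar, age, number of days or calcium concentration, and they do not say whether the 4 libraries of a group came from separate plants, so the p-values measure the spread between these libraries, which may be technical. The series holds 16 libraries, and the 8 shoot libraries (4 low, 4 optimum calcium) entered here as part of the variance estimate and as a comparison. The members were all rows with values, 5824 of 11458 genes listed under a header of target gene IDs.

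Calcium ions cross-link pectin in the cell wall and carry signals inside the cell, where calmodulin-like proteins and CBL-interacting protein kinases read changes in their concentration. Roots take calcium up and load it into the xylem, and little of it moves back through the phloem, so a plant depends on continued uptake. The wall is watched by receptor kinases at the cell surface, and it is built and stiffened by polysaccharide synthases, peroxidases and products of the phenylpropanoid pathway.

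The values are log2 of scaled reads plus 1, as deposited. The series is filed as a sequencing profile of noncoding RNA and its title concerns miRNAs, but the sources used here do not say which reads gave the gene values. The reads may be of mRNA or of small RNA that matches these genes, and a gene that rose or fell did so in such reads. In material of many cell types, fewer cells of a type and less RNA per cell cannot be told apart. The low-calcium libraries held 1.71 ± 0.360 megareads on genes (SD, n = 4) and the optimum-calcium libraries 2.80 ± 0.500 (SD, n = 4), without overlap and with an exact permutation p of 0.0286, two-sided, the smallest that 70 assignments allow. Of 15 genes known for green tissue 12 were lower in every root library than in every shoot library, and none of the 15 passed the calcium test in root in limma (5 at an unadjusted p below 0.05, and 1 in voom). Of the 15, photosystem I P700 apoprotein A1 and PSB28 were at 0 in a root library. Of 9 genes known for root 3 were higher in every root library than in every shoot library: 2 nicotianamine synthase 2 genes and PHO1-1.

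Of the optimum-calcium libraries replicate 3 stood furthest from its group. Replicate 4 also stood apart, with 152 genes more than 2-fold below the other 3. In optimum-calcium replicate 3, 205 genes lay more than 2-fold above the other 3 optimum-calcium libraries and 163 lay more than 2-fold below them, against 2 to 16 and 7 to 152 in the other libraries of the group. On the second principal component (20.6% of the variance) it lay at -38.1, and the other 7 libraries lay between -4.39 and 11.7. Among the 10 genes furthest above its group (mean log2 value of at least 8) were 2 copies of the root glutamine synthetase isozyme 5, which assimilates ammonium. Et_4A_034724 had values of 10.84, 10.89, 10.35 and 10.93 under low calcium and 10.85, 10.13, 13.56 and 9.90 under optimum calcium. Optimum-calcium replicate 3 was far above the other 7 libraries, which lay between 9.90 and 10.93. On the first component (51.1% of the variance) low-calcium replicate 3, at -3.77, was the low-calcium library nearest to the optimum group. Optimum-calcium replicate 3 lay at -4.32, within the range of the low-calcium libraries, so the groups overlapped on that component. Counts below are therefore given with all libraries and with single libraries left out.

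Under low calcium 485 of 5824 genes changed in root in limma at an adjusted p below 0.05 (8.33%). Of these, 310 rose (5.32%) and 175 fell (3.0%), and 228 changed at least 2-fold (3.91%), 184 of them upward and 44 downward. With median-ratio scaling 342 rose and 119 fell, a share of rises of 74.2% against 63.9%. The median change over all genes was -0.03 on the log2 scale. The count of calls depended on single libraries: it was 99, 88, 600 and 66 with low-calcium replicates 1 to 4 left out in turn and 167, 136, 816 and 109 with optimum-calcium replicates 1 to 4 left out in turn. Without optimum-calcium replicate 3, 816 genes passed (14%), 467 higher (8.02%) and 349 lower (5.99%). Of these 816 genes, 480 (58.8%) had a value in optimum-calcium replicate 3 that lay nearer the low-calcium mean than the mean of the other libraries of its group. The matching share, among genes called without the library in question, was 36.2% (217 of 600) for low-calcium replicate 3. For the remaining root libraries it was 0% to 10.1%.

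A set of 56 genes (0.962%) passed in the full comparison and in all 8 that left out a single root library. They comprised 38 rises, from 0.68 to 3.61 on the log2 scale, and 18 falls, from -0.61 to -3.03. In all 56 the low-calcium and optimum-calcium values did not overlap, which was also true of 412 of the 485 called genes. Over all genes, 12% had every low-calcium library above every optimum-calcium library and 9.53% had every one below. The 56 genes are described first, by role, and the wider gene groups follow. Genes of this set beyond the 15 largest rises, the 15 largest falls, the 5 smallest adjusted p and the leading members of each list were chosen after their values were seen.

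**Figure D1:**
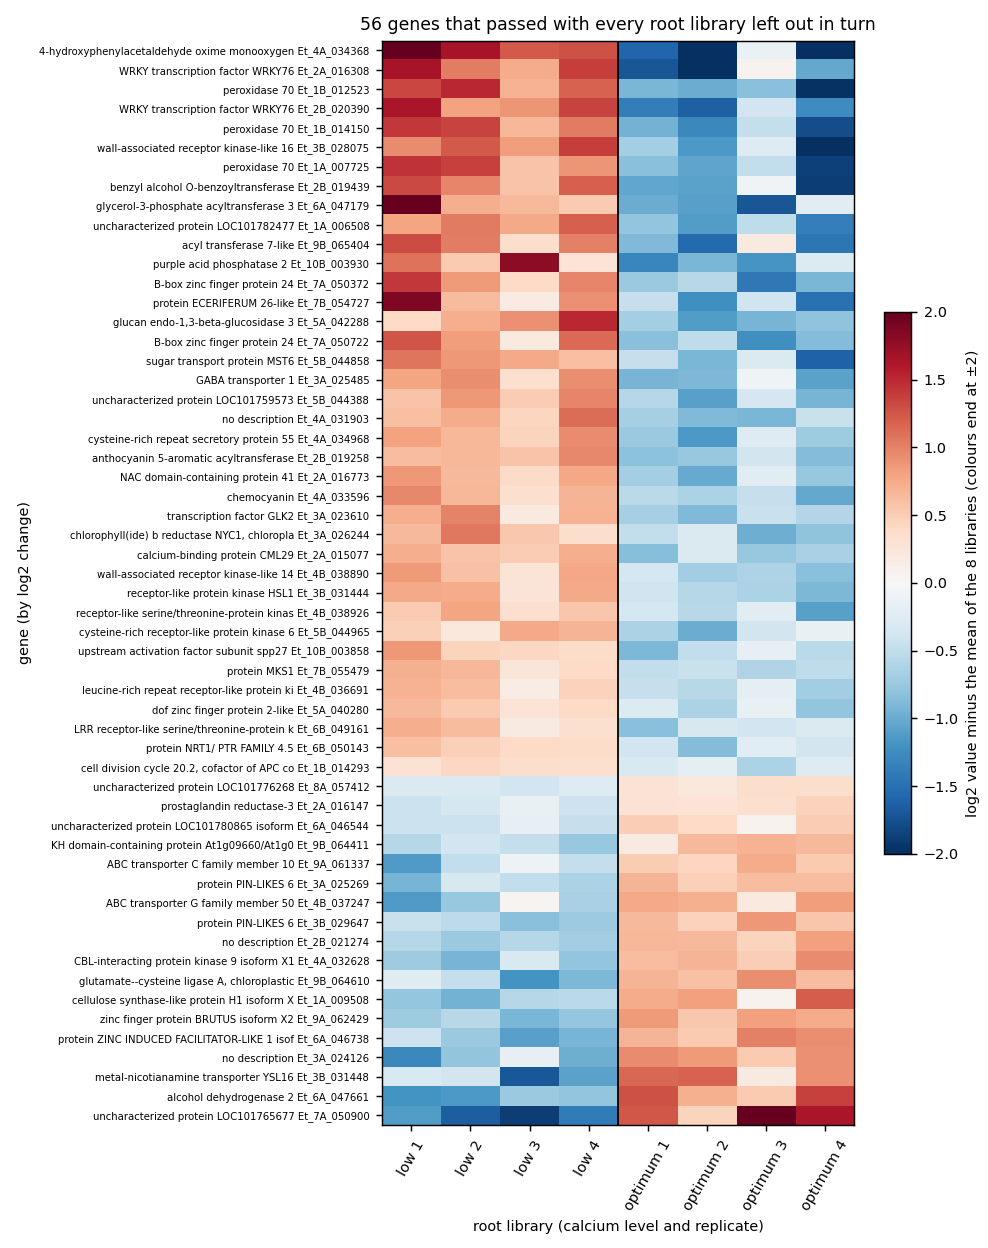
Log2 values of the 56 genes that passed with every root library left out in turn, one row per gene, each minus the gene's mean over the 8 root libraries shown as columns (red above, blue below, colours ending at 2 log2 units). The 38 rises are at the top and the 18 falls at the bottom, and optimum-calcium replicate 3 is paler than its group for many of the rises.

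The strongest rises included genes of defence. WRKY76, known in rice as a regulator of defence responses, rose from both of its copies. The A copy (Et_2A_016308) had values of 9.90, 9.27, 8.99 and 9.63 under low calcium and 6.53, 6.12, 8.32 and 7.23 under optimum calcium. Every low-calcium library was above every optimum-calcium library, and optimum-calcium replicate 3 was the highest of its group. The change was 2.40 (SE 0.44, limma adjusted p 0.00918). The B copy (Et_2B_020390) had values of 9.96, 9.14, 9.21 and 9.67 under low calcium and 6.94, 6.69, 7.94 and 7.06 under optimum calcium, again without overlap, and rose by 2.34 (SE 0.44, limma adjusted p 0.0104). These were the 2 of 26 WRKY factors that passed, in the full comparison and in each of the 8 with a library left out. MKS1, in Arabidopsis a MAP kinase substrate that binds WRKY factors, rose by 1.01 (SE 0.17, limma adjusted p 0.00498) from Et_7B_055479.

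The largest rise was that of Et_4A_034368, described as 4-hydroxyphenylacetaldehyde oxime monooxygenase, in sorghum a cytochrome P450 of cyanogenic glucoside synthesis. Its values were 7.90, 6.46, 6.04 and 6.09 under low calcium and 3.23, 1.39, 4.69 and 2.75 under optimum calcium. Optimum-calcium replicate 3 was the nearest to the low-calcium group, and the groups did not overlap. The rise was 3.61 (SE 0.67, limma adjusted p 0.00940), and the gene's low level makes the offset of 1 understate it. A cysteine-rich repeat secretory protein (Et_4A_034968) rose by 1.43 (SE 0.22, limma adjusted p 0.00251).

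The set held several receptor kinases of the cell surface, all of them rises. Wall-associated receptor kinase-like 16 (Et_3B_028075), of a family that contacts pectin, had values of 6.0, 6.28, 5.89 and 6.44 under low calcium and 4.38, 3.92, 4.80 and 2.75 under optimum calcium. All 4 low-calcium libraries were higher, and the rise was 2.19 (SE 0.35, limma adjusted p 0.00396). The genes Et_10B_003686 and Et_2B_020203 share its description, overlapped between the groups and did not pass, with changes of 1.21 (SE 0.50, limma adjusted p 0.130) and 0.99 (SE 0.43, limma adjusted p 0.147). Wall-associated receptor kinase-like 14 (Et_4B_038890) rose by 1.25 (SE 0.21, limma adjusted p 0.00468) and cysteine-rich receptor-like protein kinase 6 (Et_5B_044965) by 1.07 (SE 0.18, limma adjusted p 0.00541). HSL1, a leucine-rich repeat receptor kinase of the HAESA family (Et_3B_031444), had one of the 5 smallest adjusted p. Its values were 10.80, 10.78, 10.31 and 10.80 under low calcium and 9.64, 9.47, 9.41 and 9.15 under optimum calcium. Low-calcium replicate 3 was the lowest of its group and still above all optimum-calcium libraries. The rise of HSL1 was 1.25 (SE 0.15, limma adjusted p 0.000744). Smaller rises came from the leucine-rich repeat kinases At5g49770-like Et_4B_036691 (0.96, limma adjusted p 0.00827) and At3g47570-like Et_6B_049161 (0.92, limma adjusted p 0.0101) and from the receptor-like kinase At4g34500 (Et_4B_038926, 1.10, limma adjusted p 0.0123).

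Peroxidase 70, a secreted class III peroxidase, was represented by 3 genes in the set. Class III peroxidases oxidize wall phenolics and use or produce hydrogen peroxide. Et_1A_007725 had values of 10.55, 10.47, 9.67 and 9.996 under low calcium and 8.27, 8.05, 8.62 and 7.24 under optimum calcium, with a gap of more than 1 log2 unit between the groups. It rose by 2.13 (SE 0.26, limma adjusted p 0.000744). Et_1B_012523 had values of 9.97, 10.14, 9.33 and 9.81 under low calcium and 7.72, 7.64, 7.80 and 6.66 under optimum calcium, where optimum-calcium replicate 4 was far below the other libraries, and rose by 2.36 (SE 0.41, limma adjusted p 0.00606). The values of Et_1B_014150 were 8.74, 8.67, 7.98 and 8.36 under low calcium and 6.37, 6.03, 6.85 and 5.55 under optimum calcium, and it rose by 2.23 (SE 0.43, limma adjusted p 0.0107). In each of the 3 genes the groups did not overlap. Because the genes share a description, the division of reads among them is uncertain.

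Acyltransferases of secondary metabolism and surface lipids rose as well. Benzyl alcohol O-benzoyltransferase (Et_2B_019439), an enzyme that joins benzoyl groups to alcohols, had values of 9.35, 8.998, 8.59 and 9.22 under low calcium and 6.98, 6.95, 7.96 and 6.14 under optimum calcium. The groups did not overlap, and the rise was 2.03 (SE 0.32, limma adjusted p 0.00312). Other genes with the same description were Et_2A_015180, which rose by 1.57, and Et_9A_062632, which rose by 1.12; these calls were lost without low-calcium replicates 1, 2 or 4 or optimum-calcium replicates 2 or 4 (limma adjusted p 0.0517 to 0.0668) and without low-calcium replicates 1, 2 or 4 or optimum-calcium replicates 1, 2 or 4 (limma adjusted p 0.0593 to 0.0930). Anthocyanin 5-aromatic acyltransferase (Et_2B_019258) rose by 1.41 (SE 0.20, limma adjusted p 0.00167) and an acyl transferase 7-like gene (Et_9B_065404) by 1.84 (SE 0.35, limma adjusted p 0.0106).

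Glycerol-3-phosphate acyltransferase 3 (Et_6A_047179), of a family that makes acylglycerols including precursors of cutin and suberin, had values of 8.22, 6.83, 6.75 and 6.63 under low calcium and 5.11, 5.02, 4.39 and 5.91 under optimum calcium. Low-calcium replicate 1 was far above the rest, and the groups did not overlap. The rise was 2.003 (SE 0.40, limma adjusted p 0.0136). ECERIFERUM 26-like (Et_7B_054727), whose Arabidopsis counterpart acts in the elongation of wax precursors, had values of 6.28, 5.05, 4.57 and 5.32 under low calcium and 3.95, 3.19, 4.01 and 2.92 under optimum calcium and rose by 1.79 (SE 0.31, limma adjusted p 0.00610). Of 2 other genes with its description Et_4A_033771 rose by 1.29 (SE 0.36, limma adjusted p 0.0399), a call lost without low-calcium replicates 1, 2 or 4 or optimum-calcium replicates 1, 2 or 4 (limma adjusted p 0.0748 to 0.127), and Et_4B_037922 did not pass, with a change of 0.85 (SE 0.41, limma adjusted p 0.191). In the wall itself, glucan endo-1,3-beta-glucosidase 3 (Et_5A_042288), which cleaves the callose-type glucan, had values of 4.53, 4.86, 5.04 and 5.65 under low calcium and 3.45, 3.01, 3.21 and 3.32 under optimum calcium. All low-calcium libraries were above the optimum-calcium ones, and it rose by 1.77 (SE 0.31, limma adjusted p 0.00606). Another gene with this description, Et_5A_042282, had root means of 12.6 under low and 11.9 under optimum calcium and did not pass, with a change of 0.72 (SE 0.34, limma adjusted p 0.173). Cellulose synthase-like H1 (Et_1A_009508), in barley a mixed-linkage glucan synthase, had values of 4.30, 4.14, 4.52 and 4.54 under low calcium and 5.83, 5.90, 5.15 and 6.30 under optimum calcium and fell by 1.42 (SE 0.26, limma adjusted p 0.00827). Here optimum-calcium replicate 3 was the lowest of its group.

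Calcium-reading proteins moved in both directions. The calmodulin-like protein CML29 (Et_2A_015077), which binds calcium, had values of 7.67, 7.52, 7.45 and 7.67 under low calcium and 6.09, 6.66, 6.18 and 6.30 under optimum calcium. The low-calcium libraries were tightly grouped and above all optimum-calcium ones. CML29 rose by 1.27 (SE 0.20, limma adjusted p 0.00380), and its B copy (Et_2B_022523) rose by 0.76 (limma adjusted p 0.0450), a call lost without any single library other than low-calcium replicate 3 (limma adjusted p 0.0620 to 0.127). CBL-interacting protein kinase 9, in Arabidopsis a kinase of potassium nutrition that is activated by calcium sensors, had values of 8.79, 8.58, 9.19 and 8.72 under low calcium and 10.12, 10.19, 9.99 and 10.45 under optimum calcium in the A copy (Et_4A_032628). The groups did not overlap, and the A copy fell by 1.36 (SE 0.26, limma adjusted p 0.0115). The B copy (Et_4B_036730) fell by 1.30 (SE 0.29, limma adjusted p 0.0186), a call lost without low-calcium replicates 1, 2 or 4 or optimum-calcium replicate 4 (limma adjusted p 0.0501 to 0.0677).

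Transcription factors outside the WRKY family were all on the rising side of the set. B-box zinc finger protein 24, known in Arabidopsis from light signalling, rose from Et_7A_050372 by 1.82 (SE 0.28, limma adjusted p 0.00251) and from Et_7A_050722 by 1.71 (SE 0.33, limma adjusted p 0.0112). The values of Et_7A_050372 were 6.91, 6.36, 5.89 and 6.48 under low calcium and 4.75, 4.95, 4.07 and 4.58 under optimum calcium, with every low-calcium library higher. Another gene with this description, Et_7B_056007, had root means of 10.4 under low and 9.80 under optimum calcium. It overlapped between the groups and did not pass, with a change of 0.58 (SE 0.25, limma adjusted p 0.143). NAC domain-containing protein 41 (Et_2A_016773) had values of 8.31, 8.10, 7.82 and 8.22 under low calcium and 6.76, 6.44, 7.21 and 6.68 under optimum calcium and rose by 1.34 (SE 0.18, limma adjusted p 0.00142). The groups did not overlap and low-calcium replicate 3 was the lowest of its group. GLK2, of a family that promotes chloroplast development (Et_3A_023610), rose by 1.30 (SE 0.20, limma adjusted p 0.00251). Its level was low, with 46 reads in all low-calcium root libraries together and 27 in all optimum-calcium ones. A Dof zinc finger protein 2-like gene (Et_5A_040280) rose by 0.92 (SE 0.19, limma adjusted p 0.0141).

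NYC1, an enzyme of chlorophyll b breakdown (Et_3A_026244), rose by 1.29 (SE 0.23, limma adjusted p 0.00843). Chlorophyllide a oxygenase, which makes chlorophyll b, fell from both copies, with changes of -1.62 (SE 0.34, limma adjusted p 0.0160) in Et_3A_025936 and -1.37 (SE 0.32, limma adjusted p 0.0219) in Et_3B_030303. These calls were lost without low-calcium replicate 4 (limma adjusted p 0.0607) and without low-calcium replicate 4 or optimum-calcium replicate 1 (limma adjusted p 0.0536 to 0.0648). The summed share of reads on the 15 green-tissue genes was 0.359% to 0.435% in the low-calcium root libraries, 0.372% to 0.912% in the optimum-calcium root libraries and 8.14% to 13.2% in shoot; their part in the chlorophyll gene changes was not tested.

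Carriers of sugars and nitrogen compounds and a phosphatase were among the rises, and the carriers YSL16, ZINC INDUCED FACILITATOR-LIKE 1, PIN-LIKES 6, ABCG50 and ABCC10, described further on, were among the falls. The monosaccharide transporter MST6 (Et_5B_044858) had values of 9.05, 8.85, 8.74 and 8.57 under low calcium and 7.51, 7.07, 7.68 and 6.36 under optimum calcium, without overlap, and rose by 1.65 (SE 0.33, limma adjusted p 0.0137). GABA transporter 1 (Et_3A_025485), a carrier of gamma-aminobutyric acid, had values of 9.24, 9.38, 8.79 and 9.39 under low calcium and 7.53, 7.55, 8.37 and 7.39 under optimum calcium. Optimum-calcium replicate 3 lay well above the rest of its group and below the low-calcium libraries. The rise was 1.49 (SE 0.22, limma adjusted p 0.00251). NPF4.5, of the nitrate and peptide transporter family (Et_6B_050143), rose by 0.92 (SE 0.19, limma adjusted p 0.0138). Purple acid phosphatase 2 (Et_10B_003930), of a family that frees phosphate from organic compounds, had values of 4.42, 3.86, 5.12 and 3.60 under low calcium and 2.02, 2.42, 2.15 and 3.06 under optimum calcium, with low-calcium replicate 3 the highest, and rose by 1.84 (SE 0.35, limma adjusted p 0.0104). Another gene with its description (Et_10A_002169) overlapped between the groups and did not pass, with a change of 0.66 (SE 0.27, limma adjusted p 0.125).

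Metal-handling genes were on the falling side. YSL16, which in rice carries metals bound to nicotianamine (Et_3B_031448), had values of 9.65, 9.59, 8.26 and 8.89 under low calcium and 11.10, 11.13, 10.14 and 10.87 under optimum calcium. The groups did not overlap, low-calcium replicate 3 was the lowest of all and optimum-calcium replicate 3 the lowest of its group. YSL16 fell by 1.71 (SE 0.29, limma adjusted p 0.00541). ZINC INDUCED FACILITATOR-LIKE 1 (Et_6A_046738), a membrane carrier of the major facilitator family, had values of 7.06, 6.74, 6.39 and 6.55 under low calcium and 8.16, 8.0, 8.49 and 8.41 under optimum calcium, without overlap, and fell by 1.58 (SE 0.20, limma adjusted p 0.000744). BRUTUS, a ubiquitin ligase that limits the iron deficiency response in Arabidopsis (Et_9A_062429), had values of 8.65, 8.81, 8.45 and 8.60 under low calcium and 10.23, 9.91, 10.19 and 10.10 under optimum calcium. The libraries of each group were close together and far from the other group. BRUTUS fell by 1.48 (SE 0.18, limma adjusted p 0.000744).

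Alcohol dehydrogenase 2 (Et_6A_047661), an enzyme of ethanol fermentation, had values of 10.20, 10.26, 10.67 and 10.62 under low calcium and 12.68, 12.12, 11.93 and 12.77 under optimum calcium. All low-calcium libraries were lower by more than 1 log2 unit, and the fall was 1.93 (SE 0.25, limma adjusted p 0.000939). Glutamate-cysteine ligase A, which makes the precursor of glutathione, had values of 9.96, 9.73, 9.01 and 9.31 under low calcium and 10.88, 10.79, 11.14 and 10.83 under optimum calcium in the B copy (Et_9B_064610). The groups did not overlap, and it fell by 1.41 (SE 0.20, limma adjusted p 0.00167). Its A copy (Et_9A_062023) fell by 0.74 (SE 0.15, limma adjusted p 0.0138), a call lost without low-calcium replicate 4 (limma adjusted p 0.0584). PIN-LIKES 6, in Arabidopsis an auxin carrier of the endoplasmic reticulum, fell from both copies, with changes of -1.26 (SE 0.19, limma adjusted p 0.00275) in Et_3B_029647 and -1.19 (SE 0.18, limma adjusted p 0.00240) in Et_3A_025269. The ABC transporters ABCG50 (Et_4B_037247) and ABCC10 (Et_9A_061337) also fell, with changes of -1.25 (SE 0.24, limma adjusted p 0.0115) and -1.10 (SE 0.23, limma adjusted p 0.0141). The ABCG50 gene Et_4A_033119 fell by 1.11 (limma adjusted p 0.0428), a call lost without low-calcium replicates 1, 2 or 4 or optimum-calcium replicates 1, 2 or 4 (limma adjusted p 0.0829 to 0.143). The largest fall of the set was that of Et_7A_050900, an uncharacterized protein. It had values of 5.39, 4.86, 4.63 and 5.11 under low calcium and 7.75, 6.95, 9.25 and 8.15 under optimum calcium, without overlap and with a wide spread under optimum calcium, and fell by 3.03 (SE 0.53, limma adjusted p 0.00639).

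**Figure D2:**
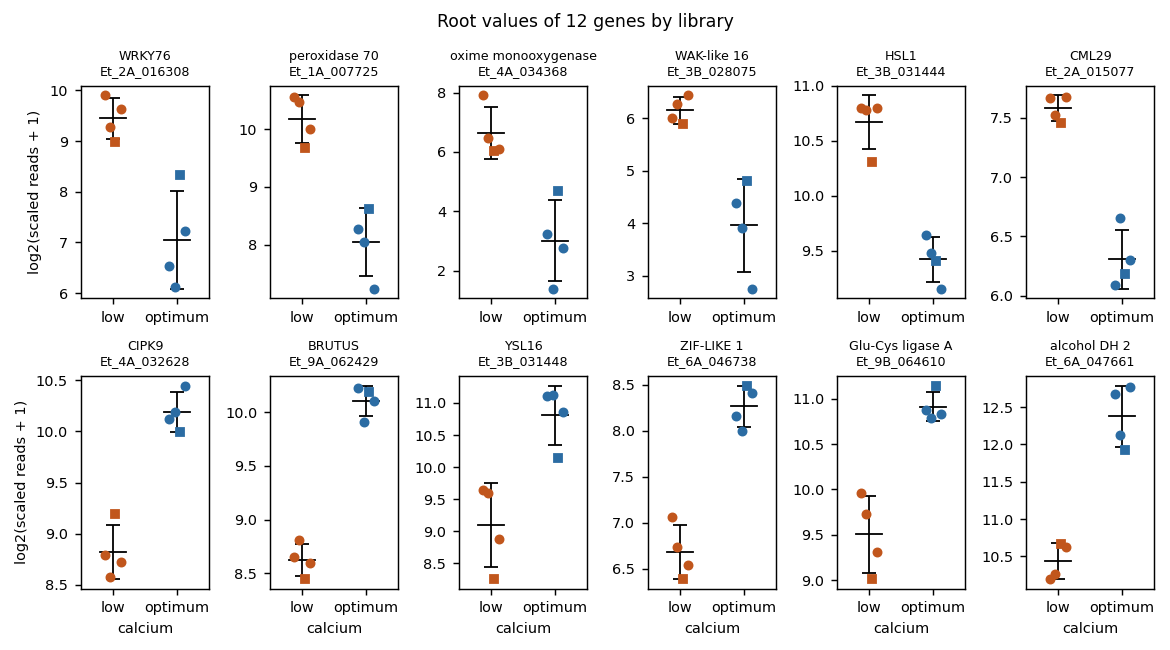
Root values of 12 of the 56 genes on the log2(scaled reads + 1) scale, one point per library, with the mean and SD (n = 4) in black and replicate 3 of each group as a square. The upper row holds 6 rises and the lower row 6 falls, and in each panel the low-calcium (orange) and optimum-calcium (blue) libraries do not overlap.

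Gene groups were then counted with all members that had values, against the background of 5.32% of all genes called higher and 3.0% called lower. Lists of cell surface receptors and wall enzymes come first, and their order is not a ranking. Of 66 wall-associated, lectin and cysteine-rich receptor kinases 16 rose, 0 fell and 50 did not pass, with a median log2 change of 0.60. The rises numbered 5, 4, 17 and 3 with low-calcium replicates 1 to 4 left out in turn, and 9, 4, 21 and 4 with optimum-calcium replicates 1 to 4 left out in turn. Of 46 class III peroxidases and laccases 11 rose, 0 fell and 35 did not pass, with a median of 0.95 and 43 positive changes. Their rises numbered 3, 4, 13 and 4 with low-calcium replicates 1 to 4 left out in turn, and 6, 5, 14 and 5 with optimum-calcium replicates 1 to 4 left out in turn. Of 80 leucine-rich repeat receptors 10 rose and 0 fell (median 0.56), and 2 fell without low-calcium replicate 3. These rises numbered 2, 2, 11 and 2 with low-calcium replicates 1 to 4 left out in turn, and 3, 3, 13 and 2 with optimum-calcium replicates 1 to 4 left out in turn. In all of these lists optimum-calcium replicate 3 lay above the mean of the other 3 libraries of its group. The median difference over genes was 0.89 log2 units for the peroxidases, 0.41 for the wall-associated group and 0.33 for the leucine-rich repeat receptors.

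Of 43 phenylpropanoid and lignin enzymes 10 rose and 1 fell (median 0.67), among them 4-coumarate-CoA ligase 5 (Et_8A_057700, 1.71), which activates phenylpropanoid acids. That call was lost without low-calcium replicate 1 (limma adjusted p 0.0504). The rises of the list numbered 1, 2, 10 and 2 with low-calcium replicates 1 to 4 left out in turn, and 2, 2, 17 and 2 with optimum-calcium replicates 1 to 4 left out in turn. Ferulate 5-hydroxylases of the cytochrome P450 84A1 type, which steer lignin toward syringyl units, rose from 2 genes, Et_1A_006959 (1.20, limma adjusted p 0.0236) and Et_1B_011776 (1.53, limma adjusted p 0.0245), calls lost without low-calcium replicates 1, 2 or 4 or optimum-calcium replicates 1, 2 or 4 (limma adjusted p 0.0514 to 0.0756) and without low-calcium replicates 1, 2 or 4 or optimum-calcium replicates 1, 2 or 4 (limma adjusted p 0.0508 to 0.0822). Of 49 wax, cutin and fatty acid enzymes 8 rose and 1 fell (median 0.42), and the rises numbered 2, 2, 8 and 2 with low-calcium replicates 1 to 4 left out in turn, and 4, 2, 14 and 2 with optimum-calcium replicates 1 to 4 left out in turn.

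The calls among 129 wall polysaccharide genes depended on single libraries. With all libraries 8 rose and 4 fell, shares of the list not far from the background, and the falls numbered 2 with median-ratio scaling. Without optimum-calcium replicate 3, 29 rose and 3 fell against a background of 8.02% higher. The median was 0.50 with that library and 0.68 without it. Rises numbered 1, 1, 17 and 1 with low-calcium replicates 1 to 4 left out in turn, and 3, 2, 29 and 2 with optimum-calcium replicates 1 to 4 left out in turn. The falls numbered 2, 1, 4 and 1 with low-calcium replicates 1 to 4 left out in turn, and 2, 2, 3 and 2 with optimum-calcium replicates 1 to 4 left out in turn.

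Leaving out optimum-calcium replicate 3 added 389 calls, 185 higher and 204 lower. The genes named here are among the 12 largest changes per direction that passed without it and without replicate 3 of both groups, and not with it, at a mean log2 value of at least 7. Phenylalanine ammonia-lyase (Et_1B_014403), the entry enzyme of the phenylpropanoid pathway, had values of 9.34, 8.82, 9.11 and 9.20 under low calcium and 6.38, 6.20, 9.41 and 7.15 under optimum calcium. Optimum-calcium replicate 3 was as high as the low-calcium libraries, and the other 3 optimum-calcium libraries were lower than all of them. The change was 1.84 (SE 0.56, limma adjusted p 0.0534) with it and 2.54 (SE 0.40, limma adjusted p 0.00212) without it. The wall-loosening protein expansin-B3 (Et_1A_006759) had values of 9.65, 9.75, 8.41 and 8.996 under low calcium and 7.73, 7.51, 9.62 and 6.71 under optimum calcium and a change of 1.31 (SE 0.46, limma adjusted p 0.0880) with it and 1.88 (SE 0.34, limma adjusted p 0.00453) without it. Cytochrome P450 86B1 (Et_1A_005888), of a family that hydroxylates fatty acids for suberin, changed by 1.18 (SE 0.38, limma adjusted p 0.0639) with it and 1.55 (SE 0.33, limma adjusted p 0.0107) without it. On the lower side, auxin response factor 6 (Et_1A_009213), a regulator of auxin-responsive genes, had values of 8.02, 8.22, 8.99 and 8.81 under low calcium and 9.70, 10.20, 8.29 and 10.23 under optimum calcium. Optimum-calcium replicate 3 lay among the low-calcium libraries. The change of Et_1A_009213 was -1.10 (SE 0.40, limma adjusted p 0.0968) with that library and -1.53 (SE 0.34, limma adjusted p 0.0115) without it. For another auxin response factor 6 gene (Et_1B_012151) the change was -0.87 (SE 0.40, limma adjusted p 0.161) with that library and -1.28 (SE 0.34, limma adjusted p 0.0251) without it.

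Of 18 pathogenesis-related and defence proteins 3 rose and 0 fell (median 0.78). Pathogenesis-related protein 1 (Et_4A_035097), a secreted marker of defence, had values of 10.32, 9.67, 8.61 and 9.43 under low calcium and 6.73, 6.47, 8.90 and 6.80 under optimum calcium. Optimum-calcium replicate 3 was above low-calcium replicate 3, so the groups overlapped. The rise was 2.28 (SE 0.60, limma adjusted p 0.0332), a call lost without low-calcium replicates 1, 2 or 4 or optimum-calcium replicates 1, 2 or 4 (limma adjusted p 0.0770 to 0.110). The list's rises numbered 0, 0, 3 and 0 with low-calcium replicates 1 to 4 left out in turn, and 1, 0, 4 and 0 with optimum-calcium replicates 1 to 4 left out in turn. Of 61 intracellular immune receptors of the NBS-LRR class 4 rose and 2 fell (median -0.10), near the background, and 0 to 4 rose and 0 to 3 fell with a library left out.

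Of 25 calcium transport genes 2 rose and 0 fell, a called share of 8% against 8.33% of all genes (median -0.14, and 0.03 without optimum-calcium replicate 3), and both rises were genes described as cation/calcium exchanger 1, a family of membrane exchangers. Et_10A_001931 had values of 6.56, 6.85, 6.21 and 6.30 under low calcium and 5.11, 4.40, 5.03 and 2.92 under optimum calcium, without overlap, and rose by 2.12 (SE 0.51, limma adjusted p 0.0247). Et_4B_036379 had values of 7.61, 7.90, 7.65 and 8.04 under low calcium and 7.34, 7.32, 6.02 and 6.93 under optimum calcium, also without overlap, and rose by 0.90 (SE 0.25, limma adjusted p 0.0390). These calls were lost without low-calcium replicates 1, 2 or 4 or optimum-calcium replicates 2 or 4 (limma adjusted p 0.0577 to 0.0775) and without low-calcium replicates 1, 2 or 4 or optimum-calcium replicates 2 or 4 (limma adjusted p 0.0517 to 0.110). The other 23 channels, pumps and exchangers did not pass. The rises of the list numbered 0, 0, 3 and 0 with low-calcium replicates 1 to 4 left out in turn, and 2, 0, 2 and 0 with optimum-calcium replicates 1 to 4 left out in turn, and 2 fell without low-calcium replicate 3 and 1 without optimum-calcium replicate 3. Of 59 calcium sensing genes 3 rose and 2 fell (median -0.10), near the background in both directions. The sensing rises numbered 1, 1, 3 and 1 with low-calcium replicates 1 to 4 left out in turn, and 1, 1, 2 and 1 with optimum-calcium replicates 1 to 4 left out in turn and the falls 1, 1, 3 and 1 with low-calcium replicates 1 to 4 left out in turn, and 2, 2, 5 and 1 with optimum-calcium replicates 1 to 4 left out in turn.

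Among 25 potassium, magnesium, sodium and proton transport genes 1 fell, potassium transporter 23 (Et_2B_020486, -0.80, limma adjusted p 0.0423), a call lost without low-calcium replicates 1, 2 or 4 or optimum-calcium replicates 1, 2 or 4 (limma adjusted p 0.0720 to 0.134). Of 55 genes for nitrogen, phosphate, sulfate and water uptake 7 rose and 2 fell (median 0.25), and 0 fell with median-ratio scaling. NPF2.11, of the nitrate and peptide transporter family (Et_4A_033470), rose by 1.26 (SE 0.28, limma adjusted p 0.0186), a call lost without low-calcium replicates 1, 2 or 4 or optimum-calcium replicates 2 or 4 (limma adjusted p 0.0517 to 0.0677). The uptake list's rises numbered 2, 1, 8 and 1 with low-calcium replicates 1 to 4 left out in turn, and 4, 1, 9 and 2 with optimum-calcium replicates 1 to 4 left out in turn, and its falls 0, 0, 0 and 0 with low-calcium replicates 1 to 4 left out in turn, and 0, 0, 0 and 1 with optimum-calcium replicates 1 to 4 left out in turn.

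Of 37 iron, zinc and other metal genes 4 fell and 1 rose, with a median of -0.31. The falls numbered 7 with scaling by total reads and 3 with median-ratio scaling. With single libraries left out they numbered 4, 3, 3 and 3 with low-calcium replicates 1 to 4 left out in turn, and 3, 3, 3 and 3 with optimum-calcium replicates 1 to 4 left out in turn, and those of YSL16, ZIF-LIKE 1 and BRUTUS held throughout. Other genes with the YSL16 and BRUTUS descriptions did not pass. The YSL16 gene Et_7B_055075 had a change of -0.92 (limma adjusted p 0.0701) and the BRUTUS gene Et_9B_065009 of -1.59 (limma adjusted p 0.0635). Of 9 root marker genes, which include nicotianamine synthases, none passed in limma (3 lower at an unadjusted p below 0.05, and 0 in voom). Their summed share of reads was 0.304% to 1.95% in low-calcium and 0.982% to 2.95% in optimum-calcium root, and their part in the metal gene changes was not tested.

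Of 8 low-oxygen and fermentation genes 2 fell and none rose (median -0.78), and 1 fell with median-ratio scaling. Beside alcohol dehydrogenase 2 this was the non-symbiotic hemoglobin Et_1A_007077, an oxygen-binding protein, with values of 7.75, 7.71, 6.98 and 7.79 under low calcium and 8.999, 8.74, 10.85 and 10.03 under optimum calcium. The groups did not overlap. It fell by 2.10 (SE 0.61, limma adjusted p 0.0448), a call lost without low-calcium replicates 1, 2, 3 or 4 or optimum-calcium replicates 1, 2, 3 or 4 (limma adjusted p 0.0577 to 0.124), so 1 fall remained with each library left out.

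Of 101 genes in the NAC, SPL, GRAS, TCP, HD-ZIP III and other families known as miRNA targets, 14 rose and 0 fell (median 0.26). The rises numbered 4, 5, 16 and 1 with low-calcium replicates 1 to 4 left out in turn, and 7, 7, 18 and 5 with optimum-calcium replicates 1 to 4 left out in turn, and 4 fell without optimum-calcium replicate 3. Scarecrow-like protein 8 (Et_7A_053059), a GRAS factor, rose by 0.93 (SE 0.19, limma adjusted p 0.0138) and ROC6, a homeodomain factor (Et_2A_016732), by 0.88 (SE 0.18, limma adjusted p 0.0138). Their calls were lost without low-calcium replicate 4 (limma adjusted p 0.0506) and without low-calcium replicate 4 (limma adjusted p 0.0531).

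Of 44 auxin genes 6 rose and 0 fell (median 0.27), and the rises numbered 1, 1, 7 and 0 with low-calcium replicates 1 to 4 left out in turn, and 3, 2, 7 and 1 with optimum-calcium replicates 1 to 4 left out in turn. IAA1, a repressor of auxin response (Et_9B_066144), rose by 0.64 (SE 0.13, limma adjusted p 0.0138), auxin response factor 10 (Et_7A_052547) by 1.33 (SE 0.28, limma adjusted p 0.0162) and auxin response factor 8 (Et_1B_014399) by 1.22 (SE 0.27, limma adjusted p 0.0186). These calls were lost without low-calcium replicate 4 (limma adjusted p 0.0530), without low-calcium replicates 1, 2 or 4 or optimum-calcium replicate 4 (limma adjusted p 0.0545 to 0.0607) and without low-calcium replicates 1, 2 or 4 or optimum-calcium replicates 2 or 4 (limma adjusted p 0.0517 to 0.0625). Without optimum-calcium replicate 3 the list also held 3 falls, among them those of auxin response factor 6 given above.

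Of 28 abscisic acid and desiccation genes 5 fell and none rose (median -0.26). The falls numbered 0, 0, 5 and 0 with low-calcium replicates 1 to 4 left out in turn, and 0, 0, 5 and 0 with optimum-calcium replicates 1 to 4 left out in turn, 3 with median-ratio scaling and 2 with scaling by total reads. The named members were protein phosphatases 2C, a class that includes repressors of abscisic acid signalling: number 41 (Et_7A_051189) fell by 0.76 (SE 0.19, limma adjusted p 0.0299), and number 45 (Et_7A_051459) fell by 0.48 (SE 0.12, limma adjusted p 0.0293). Both calls were lost, without low-calcium replicates 1, 2 or 4 or optimum-calcium replicates 1, 2 or 4 (limma adjusted p 0.0609 to 0.0993) and without low-calcium replicates 1, 2 or 4 or optimum-calcium replicates 1, 2 or 4 (limma adjusted p 0.0539 to 0.0964).

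Of 66 sugar and starch genes 11 rose and 2 fell (median 0.28). The rises numbered 1, 1, 7 and 1 with low-calcium replicates 1 to 4 left out in turn, and 1, 1, 8 and 1 with optimum-calcium replicates 1 to 4 left out in turn, and the falls 2, 0, 2 and 1 with low-calcium replicates 1 to 4 left out in turn, and 0, 1, 3 and 1 with optimum-calcium replicates 1 to 4 left out in turn. Polyol transporter 5 (Et_5A_042868), a sugar alcohol carrier, rose by 1.56 (SE 0.37, limma adjusted p 0.0236), and trehalose-phosphate phosphatase 6 (Et_8A_058471), which makes trehalose, fell by 1.26 (SE 0.28, limma adjusted p 0.0196). Their calls were lost without low-calcium replicates 1, 2 or 4 or optimum-calcium replicates 1, 2 or 4 (limma adjusted p 0.0551 to 0.0750) and without low-calcium replicate 2 or optimum-calcium replicate 1 (limma adjusted p 0.0508 to 0.0624).

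Several groups had few or no calls. None of 35 UDP-glycosyltransferases, 31 heat shock proteins and chaperones, 40 small RNA and chromatin silencing genes or 17 MYB factors passed in limma. At an unadjusted p below 0.05 they numbered 4 higher and 3 lower, 1 higher and 3 lower, 0 higher and 3 lower, and 4 higher and 1 lower, in that order. Of these, voom called 1 glycosyltransferase, 1 heat shock protein and 4 MYB factors higher and none lower. Without optimum-calcium replicate 3, 3 MYB factors passed higher and 1 lower, and without low-calcium replicate 3, 1 passed higher. Of the silencing genes 2 passed lower without low-calcium replicate 3 and 1 without optimum-calcium replicate 3, and 1 glycosyltransferase passed higher without optimum-calcium replicate 3. A p above the threshold does not show that these genes were alike in the groups. Of 86 cell division and cytoskeleton genes 3 fell, and of 60 ribosomal and translation genes 1 rose and 3 fell. With single libraries left out the cell division genes had 0 to 4 rises and 0 to 3 falls, with no fall unless replicate 3 of either group was left out, and the ribosomal genes 0 to 3 rises and 0 to 4 falls. With scaling by total reads 1 gene of each list fell. In the largest list, 211 F-box proteins and E3 ubiquitin ligases, 6 rose and 8 fell. The rises of that list numbered 0, 0, 8 and 0 with low-calcium replicates 1 to 4 left out in turn, and 3, 2, 7 and 1 with optimum-calcium replicates 1 to 4 left out in turn, and its falls 0, 1, 13 and 0 with low-calcium replicates 1 to 4 left out in turn, and 0, 0, 17 and 0 with optimum-calcium replicates 1 to 4 left out in turn.

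Of 40 cytochrome P450 enzymes 5 rose and 1 fell, of 29 jasmonate, gibberellin, cytokinin and brassinosteroid genes 3 rose, of 26 bHLH and bZIP factors 3 rose and of 17 AP2/ERF and ethylene genes 1 rose. Redox control held 1 rise and 1 fall in 54 genes, photosynthesis and chlorophyll 3 rises and 2 falls in 35, and pentatricopeptide repeat proteins 2 rises and 1 fall in 65. With single libraries left out these lists held 0 to 8 rises and 0 to 5 falls, the most without optimum-calcium replicate 3. Of 64 ABC transporters 2 rose and 4 fell, and the falls numbered 2, 2, 5 and 2 with low-calcium replicates 1 to 4 left out in turn, and 2, 2, 5 and 2 with optimum-calcium replicates 1 to 4 left out in turn. ABCG23 (Et_9A_060902) rose by 2.34 (SE 0.50, limma adjusted p 0.0160), a call lost without low-calcium replicates 2 or 4 or optimum-calcium replicate 2 (limma adjusted p 0.0517 to 0.0596).

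**Figure D3:**
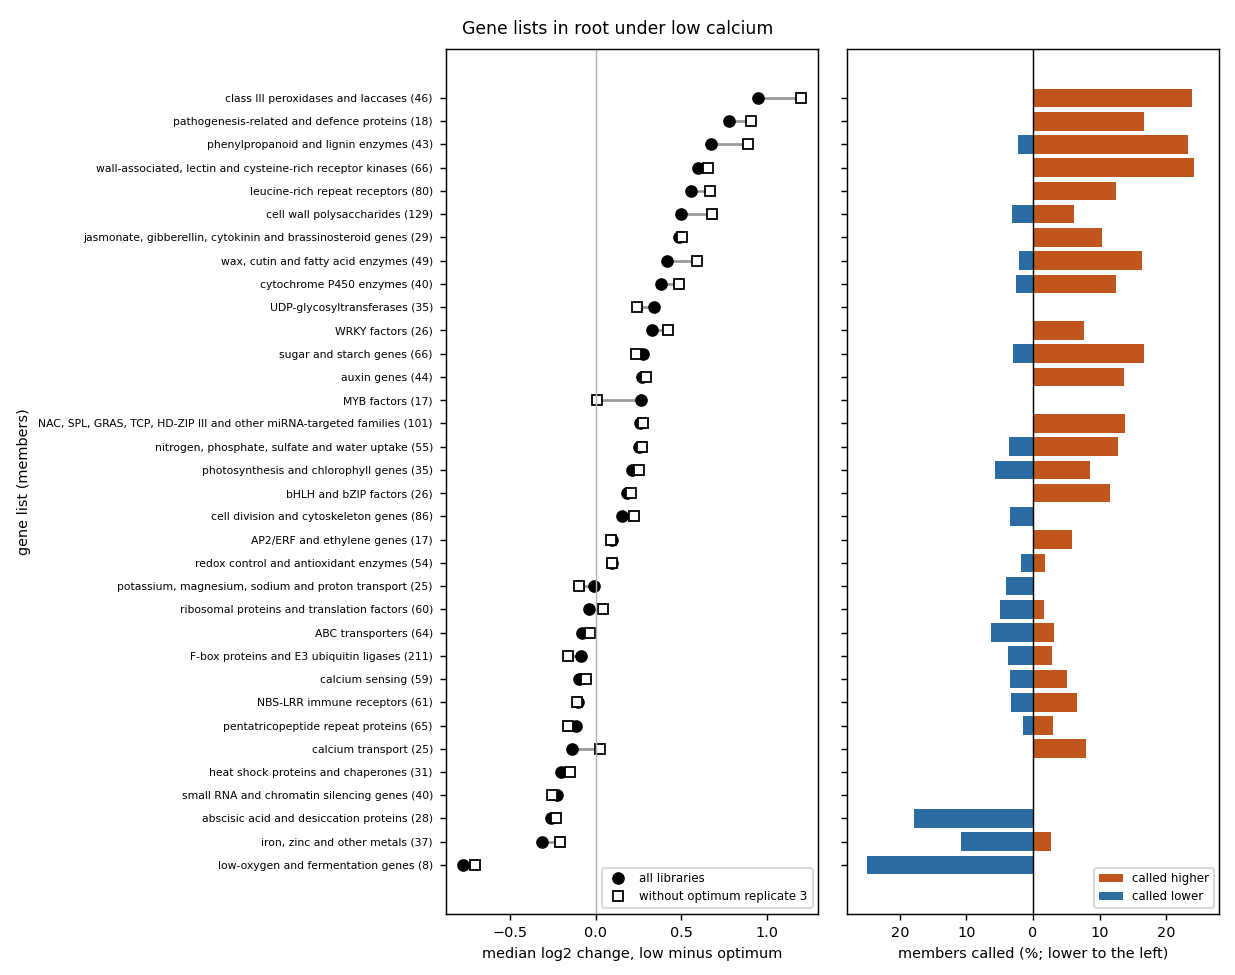
Left, the median log2 change (low minus optimum calcium) of each of 34 gene lists in root with all libraries (filled circles) and without optimum-calcium replicate 3 (open squares), with the number of members in brackets. Right, the percentage of members called higher (orange) or lower (blue) with all libraries; class III peroxidases and laccases have the highest median, 0.95, and low-oxygen genes the lowest, -0.78.

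Tef carries most genes as A and B copies. Compared were 1434 pairs with the same annotated hit in another grass and matching chromosome number, 1 gene in each subgenome. In 179 pairs at least 1 copy passed. Both copies passed in 44 pairs, 29 higher and 15 lower, all 44 in the same direction. In the 135 pairs with a single called copy, the other copy had the same sign in 128. The share with the same sign over all 1434 pairs was not counted, so these counts do not show closer agreement among called pairs. Across the pairs the changes of the copies correlated with Pearson r 0.813 and Spearman rho 0.804, a description only, because the copies share libraries and may share reads. Of 20 pairs with a copy in the set of 56, 2 had both copies in it, WRKY76 and PIN-LIKES 6. Several pairs were less alike, among them NPF4.5, with 0.92 in the B copy and 0.18 in the A copy (Et_6A_048200, limma adjusted p 0.614). The secretory protein Et_4A_034968 rose by 1.43, and its B copy Et_4B_039125 changed by 0.27 (limma adjusted p 0.793). Anthocyanin 5-aromatic acyltransferase had 1.41 in the B copy and 0.45 in the A copy (Et_2A_016399, limma adjusted p 0.204). The A copy of the At4g34500 kinase (Et_4A_034765) changed by 0.30 (limma adjusted p 0.648), and that of the KH domain gene (Et_9A_061846) by -0.28 (limma adjusted p 0.454). ABCC10 (Et_9A_061337) fell by 1.10 and its B copy (Et_9B_066232) had a change of -0.26 (limma adjusted p 0.700), which was 0.09 without optimum-calcium replicate 3. These differences between copies were not tested.

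**Figure D4:**
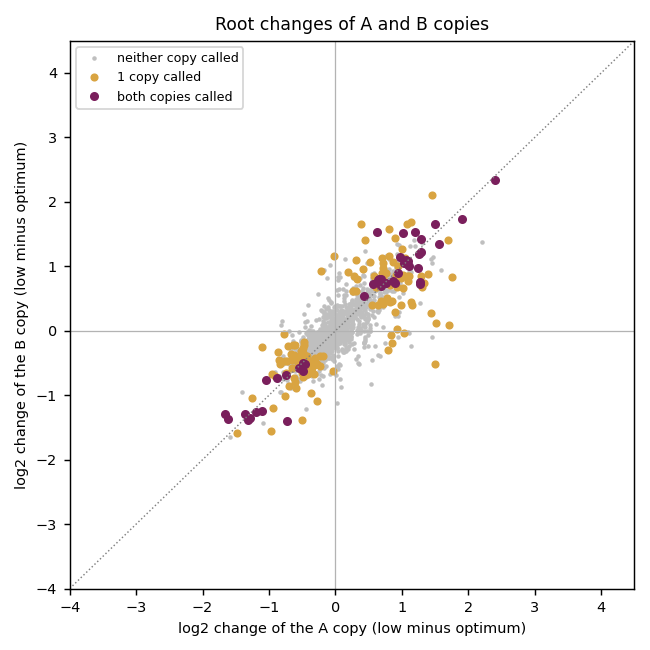
Log2 change in root (low minus optimum calcium) of the A copy on the x axis and the B copy on the y axis for 1434 pairs, with pairs of 2 called copies in purple and of 1 called copy in yellow. The 44 pairs with both copies called lie in the lower left or upper right of the plot, and the dotted line marks equal change.

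The root changes were set beside those of shoot, which come from other libraries and share the variance estimate. The title of 1 low-calcium shoot library names both tissues, and its source name is shoot. In shoot 2292 of all 5824 genes passed, so part of any overlap with the root calls follows from that number. Of the 485 genes called in root, 234 changed in the same direction in shoot (48.2% of the root calls, 10.2% of the 2292 shoot calls). A further 16 changed in the opposite direction and 235 did not pass in shoot. A test of the difference between the responses contains the root change by which the 485 were selected. That selection by itself raises the share that passes. The test passed for 88 of the 485 (18.1%), against 7.4% of all genes. Of these, 51 were root rises with a positive root minus shoot change and 24 were root falls with a negative one. Among them are genes that changed in the opposite direction in shoot, such as alcohol dehydrogenase 2 below. In the other 13 the shoot change went further in the same direction. With single root libraries left out, 21 to 42 called genes differed without low-calcium replicate 1, 2 or 4 or optimum-calcium replicate 1, 2 or 4, 78 without low-calcium replicate 3 and 131 without optimum-calcium replicate 3.

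In the set of 56, also selected by their root change, the difference passed for 23 genes, 17 rises and 6 falls. Alcohol dehydrogenase 2, lower in root, was higher by 2.37 in shoot; the root minus shoot value was -4.30, SE 0.35, limma adjusted p 9.0e-06. The undescribed gene Et_2B_021274 had the same pattern, with -1.29 in root and 1.70 in shoot (root minus shoot -2.99, SE 0.33, limma adjusted p 0.000181). Glucan endo-1,3-beta-glucosidase 3 (Et_5A_042288) went the other way, with -1.001 in shoot (root minus shoot 2.77, SE 0.43, limma adjusted p 0.00157). These were the 3 genes of the set with opposite calls in the tissues. Another gene described as glucan endo-1,3-beta-glucosidase 3, Et_5A_042282, is outside the set and differed in the reverse sense. It rose by 2.91 in shoot (root minus shoot -2.19, SE 0.48, limma adjusted p 0.0106). ZIF-LIKE 1 (Et_6A_046738) changed by 0.36 in shoot (root minus shoot -1.94, SE 0.28, limma adjusted p 0.000828), and YSL16 (Et_3B_031448) by -0.06 in shoot (root minus shoot -1.65, SE 0.41, limma adjusted p 0.0238).

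Among the rises, the peroxidase 70 gene Et_1A_007725 changed by -0.07 in shoot (root minus shoot 2.20, SE 0.37, limma adjusted p 0.00230), CML29 (Et_2A_015077) by -0.18 in shoot (root minus shoot 1.45, SE 0.29, limma adjusted p 0.00607) and HSL1 (Et_3B_031444) by 0.29 in shoot (root minus shoot 0.96, SE 0.22, limma adjusted p 0.0124). The other peroxidase 70 genes of the set also rose in shoot, Et_1B_012523 by 2.16 and Et_1B_014150 by 1.15. Their differences between the tissues did not pass (limma adjusted p 0.878 and 0.310). For WRKY76 the difference did not pass, at -0.41, SE 0.62, limma adjusted p 0.752 for Et_2A_016308 and -1.67, SE 0.63, limma adjusted p 0.118 for Et_2B_020390. The BODYGUARD 3 genes, of a family needed for the cuticle, rose in root by 1.499 (Et_2A_015401) and 1.66 (Et_2B_019607) and more in shoot, with root minus shoot values of -4.59, SE 0.56, limma adjusted p 0.000379 and -4.33, SE 0.55, limma adjusted p 0.000444. Their root calls were lost without low-calcium replicates 1, 2 or 4 or optimum-calcium replicates 1, 2 or 4 (limma adjusted p 0.0666 to 0.0880) and without low-calcium replicates 1, 2 or 4 or optimum-calcium replicates 2 or 4 (limma adjusted p 0.0554 to 0.0701).

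**Figure D5:**
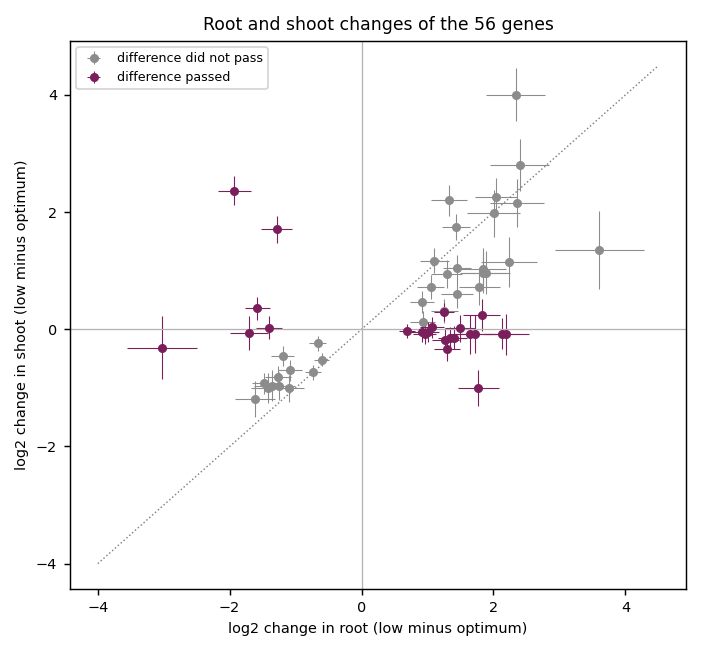
Log2 change in root (x axis) and in shoot (y axis) of the 56 genes, with SE bars, the 23 genes whose responses differed between the tissues in purple and the others in grey. Alcohol dehydrogenase 2, at -1.93 in root and 2.37 in shoot, lies furthest from the dotted line of equal change.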

How the data were processed

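Reads on genes were analysed in 8 root libraries (4 low, 4 optimum calcium), with 8 shoot libraries in the same fit. The log2 values were used as the authors deposited them; with the log and an offset of 1 undone, 100% of 93184 values were whole multiples of a step fixed per library (tolerance 0.1 of a step), so they are log2 of scaled reads plus 1. Small RNA reads by length (unit: other) were deposited by the authors in the same file and gave 7.12 ± 2.42 megareads in low-calcium and 14.6 ± 4.22 megareads in optimum-calcium root (SD, n = 4). Each column was assigned by its tissue letter and number; the letter H of the optimum-calcium columns is not explained. Aligner, genome build and counting method: not given in the sources used here. No gene positions or sequences were used. The strand used in counting is not given, so overlapping genes cannot be told apart.

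limma 3.58.1 (R 4.3.3) with an intensity trend was fitted to 16 libraries with 1 coefficient per group and no replicate term, with Benjamini-Hochberg adjustment over 5824 genes at 0.05. The main contrast was low minus optimum calcium in root. Depth was compared by exact permutation. Of 5606 described genes 3594 share a description, so the division of reads between copies is uncertain. The 34 lists were made by words in the descriptions, with false matches removed after the descriptions were read, and hold 1743 genes. The members, lists and named genes were chosen with earlier results of these data known. Named were the 15 largest rises and 15 largest falls among genes that passed with each root library left out, up to 3 passing members per list (otherwise the member with the highest mean), the 5 smallest adjusted p, the 4 smallest adjusted p of the difference from shoot, and up to 2 genes with the same description as a named one. The alternatives were median-ratio or total scaling, a pseudocount of 0.1, a filter of 30 reads per megaread in at least 4 root libraries, no trend, library weights, root libraries alone, a replicate block, voom on recovered reads, thinning, a 2-fold threshold and leaving out libraries. The fit was tested on simulated data. Tables were handled in Python 3.11.15 (pandas 2.3.3, numpy 2.4.6, scipy 1.17.1) and plots drawn with matplotlib 3.10.9.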

Additional observations from a re-analysis of the deposited data

Results flagged for a closer look

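In 9 of 180 groups of 4 root values a single library stood far from the other 3. Chance gives about 1 in 20 for unselected, independent groups. The genes here were selected by leaving libraries out, and all groups share the same libraries, so the rates cannot be compared. For genes these were peroxidase 70 (Et_1B_012523) in optimum-calcium replicate 4 at a log2 value of 6.66, glycerol-3-phosphate acyltransferase 3 (Et_6A_047179) in low-calcium replicate 1 at 8.22, the KH domain gene Et_9B_064411 in optimum-calcium replicate 1 at 6.14 and HSL1 (Et_3B_031444) in low-calcium replicate 3 at 10.31. The others were GABA transporter 1 (Et_3A_025485) in optimum-calcium replicate 3 at 8.37, the uncharacterized gene Et_6A_046544 in low-calcium replicate 3 at 7.48 and spp27 (Et_10B_003858) in low-calcium replicate 1 at 5.65. The median level of 17 AP2/ERF and ethylene genes was set apart in low-calcium replicate 4 at 8.23, and that of 40 small RNA and chromatin silencing genes in optimum-calcium replicate 4 at 8.1.

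In limma the low-calcium response differed between root and shoot for 23 of the 56 genes that passed with each root library left out. The 56 were selected by their root change, which is part of that difference. The root change minus the shoot change was 2.28 for wall-associated receptor kinase-like 16 (Et_3B_028075), 2.2 for peroxidase 70 (Et_1A_007725), 2.77 for glucan endo-1,3-beta-glucosidase 3 (Et_5A_042288), and 1.58 and 1.79 for the B-box 24 genes Et_7A_050372 and Et_7A_050722. It was 1.45 for CML29, 1.55 for anthocyanin 5-aromatic acyltransferase, 1.48 for NAC 41, 1.63 for GLK2, 1.74 for MST6 and 1.48 for GABA transporter 1. Receptor kinases gave 1.04 (Et_4B_036691), 0.97 (Et_6B_049161), 1.04 (Et_5B_044965) and 0.96 (HSL1). MKS1 gave 1.06 and CDC20.2, an activator of the anaphase-promoting complex, 0.72 (Et_1B_014293). Among falls it was -2.72 for Et_7A_050900, -4.3 for alcohol dehydrogenase 2, -1.65 for YSL16, -1.94 for ZIF-LIKE 1, -1.43 for glutamate-cysteine ligase A and -2.99 for Et_2B_021274.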

How the results depend on the processing

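The 485 calls (310 higher, 175 lower) became 2311 (1137 higher, 1174 lower) with library weights, 831 (568 higher, 263 lower) with root libraries alone, 271 with root libraries alone and a replicate block (53 lower), and 228 (184 higher, 44 lower) at 2-fold. Leaving out single libraries gave 66 to 816 calls (42 to 467 higher, 24 to 349 lower), and leaving out replicate 3 of both groups gave 1051 (531 higher, 520 lower). The 88 calls that differed from shoot became 439 with library weights, 53 at 2-fold, 53 after thinning to the smallest library and 51 with voom on the recovered reads, 21 to 131 with a library left out and 132 without replicate 3 of both groups. The cause was not tested; 2-fold and fewer libraries remove genes or samples by construction. Same-numbered libraries correlated at 0.034, -0.028, -0.405 and 0.081 in their deviations, and differently numbered ones at -0.318 to 0.507. So few values with so wide a range cannot decide whether the numbers pair the libraries. The replicate block gave 351 calls (248 higher, 103 lower). All 56 genes of the set kept their direction in each alternative. Passing the 8 fits that left out a single root library defined the set, so those fits give it no further support. In each other alternative in which they were tested the 56 genes passed, with exceptions. These were 1 gene with a pseudocount of 0.1, 5 with voom and 10 with root libraries alone and a replicate block. At the 2-fold threshold 48 of the 56 passed, and 49 of the 56 passed the filter of 30 reads per megaread. Of the named genes 2 that had not passed changed sign: UDP-glycosyltransferase 85A2 (Et_5B_044549, 0.15) was -0.0162 with library weights, -0.0149 without replicate 3 of both groups and -0.0775 to 0.332 with single libraries left out, and ABCC10 Et_9B_066232 (-0.26) was -0.574 to 0.0879 with single libraries left out, each changing sign without optimum-calcium replicate 3. Low-calcium root libraries held fewer gene reads, and with all thinned to the smallest 348 genes passed, 316 of them among the 485.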

Other observations

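Genes outside the 34 lists also changed. Of the 56 genes that passed with each root library left out, 28 were in no list, 3 of them with no description and 5 uncharacterized. Chemocyanin, a small copper protein (Et_4A_033596), rose by 1.33 (SE 0.27, limma adjusted p 0.0138), and its values were 10.04, 9.75, 9.41 and 9.76 under low calcium and 8.54, 8.45, 8.62 and 8.06 under optimum calcium. All low-calcium libraries were higher. CDC20.2 (Et_1B_014293) rose by 0.68 (SE 0.12, limma adjusted p 0.00606), the smallest rise of the set. Prostaglandin reductase-3 (Et_2A_016147) fell by 0.67 (SE 0.12, limma adjusted p 0.00940) and the KH domain gene Et_9B_064411, described as an RNA-binding type, by 1.09 (SE 0.18, limma adjusted p 0.00468).

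Calls were spread over levels and subgenomes. Of the 1941 genes with the lowest mean root level 7.83% passed, of the 1942 in the middle 7.52% and of the 1941 with the highest 9.63%. In the A subgenome 8.74% of 2838 genes passed and in the B subgenome 7.95% of 2969. Genes in a list passed in 10.8% of cases, described genes in no list in 7.14%, uncharacterized ones in 7.28% and genes without a description in 9.17%. These shares are descriptions without a test.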
